A study of Sus scrofa with 2 samples.

Results

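The tips of pig chromosomes were examined as the first and the last 5 Mb of chromosomes 1 to 18, in an angiosarcoma-like liver tumor and in control tissue. A probe was taken where it starts in the first 5 Mb of its chromosome or ends within 5 Mb of the last probe end. This gave 36 ends with 14174 of the 177440 probes, or 8.42% of the 168312 probes on these chromosomes, and each end held between 290 and 469 probes. The ends were split into 4 classes. Chromosomes 1 to 12 are biarmed, with the centromere between a pair of arms, and gave 12 first ends with 4662 probes and 12 last ends with 4629 probes. Chromosomes 13 to 18 are acrocentric, with the centromere at the end that is by convention counted as the first, and gave 6 first ends with 2412 probes and 6 last ends with 2471 probes. By this orientation the first ends of the acrocentric chromosomes lie on the centromere side, and the other 3 classes are tips of chromosome arms. The place of the centromere comes from the pig karyotype and cannot be read from the probes, and whether position 1 of each acrocentric chromosome lies at the centromere in the array design was not tested.

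A chromosome end is capped by telomeric repeats, which keep it from being joined to other ends, and the unique sequence next to them is the subtelomeric region. When an arm breaks, the piece beyond the break has no centromere and can be lost at cell division, so that terminal losses are a common form of copy number change in tumors. Acrocentric chromosomes have only a minute short arm, and the sequence at their centromere side borders on satellite repeats that arrays do not cover well. In array-based comparative genomic hybridization (aCGH), DNA of a tissue and of a reference, each with its own dye, compete for probes whose positions are known. The log2 ratios of tissue over reference were centred here on the autosomal median of each array. A value below 0 thus means a ratio below that median, and not that the tissue signal was below the reference signal.

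Diethylnitrosamine (DENA) is a carcinogen that becomes a DNA-alkylating agent in the liver, and hepatic angiosarcoma is a malignant tumor of the vessel lining. The tumor came from the liver of a female pig that received DENA once, at 200 mg/kg body weight by the design text, with the liver taken 10 months later, and the control was non-tumor liver tissue, also of a female. Tissue DNA was labelled with Cy3 and DNA of reference liver, also female, with Cy5 on both arrays. Breed and age are not in the labels, which give both tissues the same treatment text, so whether the control animal was treated is not clear. The labels describe micro-dissected, paraffin-embedded tumors as the source of DNA, and whether control tissue and reference were embedded as well is not stated. There was 1 array per tissue, each on its own slide, so tissue and slide cannot be told apart, there are no replicates, and no test was possible. Errors below are SDs over probes or over ends of the same array, which share 1 DNA sample. Coordinates are the design’s own, and no genome build is named for them.

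Log2 ratios of tissue over reference were set to a median of 0 over the autosomal probes of each array, and the level of an end is the median of its probes. At the ends, tumor DNA had a median processed signal of 1046 and its reference 1128, against 706 and 626 on the rest of the autosomes. The control array had medians of 1096 for the tissue and 1085 for the reference at the ends, and 660 and 618 on the rest. In the tissue channel, 87.1% of the end probes were well above background in the tumor and 85.9% in the control, while outside the ends the shares were 79.1% and 75.4%. Taken over all 36 ends, the median signal was thus higher than elsewhere in every channel, although the classes differed in this, as described further on.

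On the tumor array the ends lay low in 3 of the 4 classes. The mean of the end medians was -0.31 ± 0.14 (SD over 12 ends) at the first ends of biarmed chromosomes, -0.27 ± 0.11 (SD over 6 ends) at the last ends of acrocentric chromosomes and -0.19 ± 0.09 (SD over 12 ends) at the last ends of biarmed chromosomes. The centromere-side first ends of the acrocentric chromosomes had a mean of 0.02 ± 0.19 (SD over 6 ends) and stood apart from the arm tips in their mean, although their range overlapped with the ranges of all other classes. Of the 36 ends, 31 were below 0 on the tumor array, where 44.8% of all 5 Mb blocks of the autosomes were below 0. These were 11 of 12 and 12 of 12 biarmed first and last ends, 6 of 6 acrocentric last ends and 2 of 6 acrocentric first ends. A level at or below -0.25 was found at 18 ends, 10 of them biarmed first ends, against 9.77% of all 5 Mb blocks.

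The control array gave the same order of the 4 class means, closer to 0. The means were -0.11 ± 0.07 (SD over 12 ends) for biarmed first ends, -0.07 ± 0.04 (SD over 6 ends) for acrocentric last ends, -0.05 ± 0.04 (SD over 12 ends) for biarmed last ends and 0.01 ± 0.05 (SD over 6 ends) for acrocentric first ends. The first and the second of these overlapped in their ranges, as did all neighbouring classes in the order. On this array 31 ends were below 0 as well, against 45.2% of all 5 Mb blocks, and 0 ends reached -0.25, as did 0% of all blocks. Levels outside the ends were also closer together here, with an SD over 404 blocks of 0.062, against 0.153 on the tumor array. Below the 10th percentile of the blocks outside the ends of the same array lay 17 ends in the control and 23 in the tumor. Of all 5 Mb blocks, 13.2% and 14.5% lay below it. Of the 12 biarmed first ends, 10 lay below it on each array. When arrays were centred on their mode, the control means were -0.049, -0.0083, 0.012 and 0.069 for biarmed first, acrocentric last, biarmed last and acrocentric first ends. The sign of the mean of biarmed last ends thus depended on the centring, and the count of 31 ends below 0 holds for centring on the median. Under normexp background correction of the median signals, the control means of biarmed first, acrocentric last and biarmed last ends were -0.25, -0.21 and -0.13, in the same order. The tumor means in that setting were -0.40, -0.35 and -0.23.

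**Figure D1:**
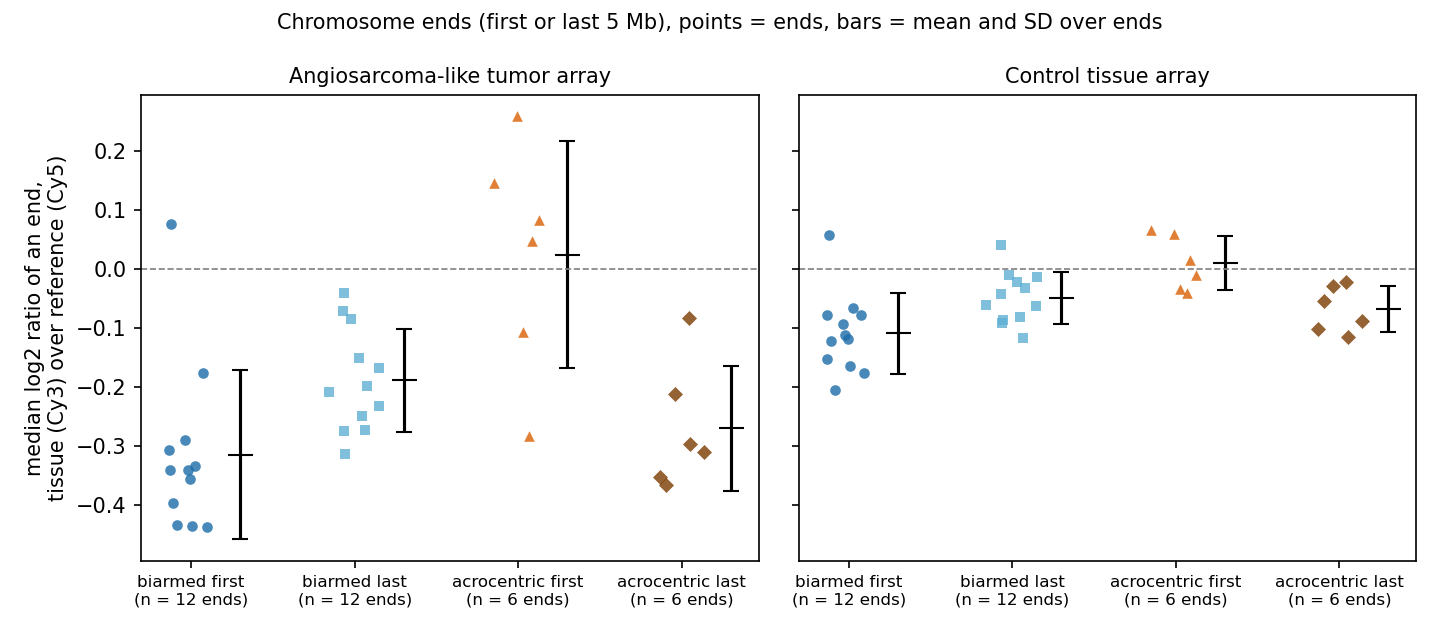
Median log2 ratio of tissue over reference for each of the 36 chromosome ends (points) by class on the tumor array (left) and the control array (right), with the mean and SD over ends as black bars. The acrocentric first ends scatter around 0 with means of 0.02 and 0.01, and the other 3 classes lie below 0, from -0.31 to -0.19 on the tumor array and from -0.11 to -0.05 on the control array.

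Among the first ends of biarmed chromosomes, those of chromosomes 3 and 12 were the lowest on the tumor array. Chromosome 3 from 926 to 4945095 had a median of -0.44 (SD 0.41 over 372 probes) in the tumor and of -0.18 (SD 0.45) in the control. Chromosome 12 from 1 to 4995045 had -0.44 (SD over 394 probes 0.34) in the tumor and -0.16 (SD 0.36) in the control. In both ends all 5 windows of 1 Mb were at or below -0.25 on the tumor array. The highest biarmed first ends were those of chromosomes 10 and 9. On chromosome 10 from 1 to 4999670 the median was 0.08 (SD over 422 probes 0.52) in the tumor and 0.06 (SD 0.55) in the control, the only end of its class above 0 on either. Chromosome 9 from 2776 to 4977470 had -0.18 (SD over 366 probes 0.49) and -0.08 (SD 0.50). The remaining 8 biarmed first ends were all below 0 on both arrays. Without chromosome 10 the class mean on the tumor array was -0.35.

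The last ends of biarmed chromosomes had a mean closer to 0 than the first ends on the tumor array, by less than the SD over ends of the latter. This rested on chromosome 10, without which the means differed by 0.16 and the SD over the first ends was 0.077. The lowest on the tumor array was that of chromosome 12 from 52413276 to 57407395, with -0.31 (SD over 390 probes 0.42), against -0.09 (SD 0.44) on the control array. Chromosome 11 from 74827876 to 79810895 followed with -0.27 (SD over 448 probes 0.47) and -0.09 (SD 0.47). At the other side of the class, chromosome 8 from 114990451 to 119983645 had -0.04 (SD over 469 probes 0.48) in the tumor and 0.04 (SD 0.47) in the control. Chromosome 5 from 95521976 to 100510545 had -0.07 (SD over 450 probes 0.52) and -0.04 (SD 0.50). Chromosome 12 was thus low at both of its ends, but the rest of this chromosome was also below 0, at -0.19 in the tumor, so that its first and last ends lay at -0.25 and -0.12 relative to it.

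The centromere-side first ends of the acrocentric chromosomes did not form a uniform class. The highest end of all 36 on the tumor array was that of chromosome 15 from 16651 to 4997820, with 0.26 (SD over 403 probes 0.57), and it had 0.06 (SD 0.62) on the control array. The lowest was that of chromosome 18 from 1 to 4993195, with -0.28 (SD over 414 probes 0.44) in the tumor and -0.04 (SD 0.42) in the control. Its tumor value was in the range of the other 3 classes, and all 5 of its windows were below 0. Of the other 4 acrocentric first ends, 3 were above 0 in the tumor. The class mean on the tumor array moved to 0.09 without chromosome 18 to -0.02 without chromosome 15 and to -0.00041 without chromosome 17, so its sign rested on single chromosomes. With each array centred on its mode in place of its median, this mean was -0.018.

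At the other end of the same chromosomes, all 6 last ends were below 0 on both arrays. The lowest on the tumor array was that of chromosome 17 from 59370201 to 64366170, with -0.37 (SD over 429 probes 0.37), against -0.06 (SD 0.40) on the control array, the widest gap between the arrays at any of the 36 ends. The highest was that of chromosome 18 from 49309901 to 54298470, with -0.08 (SD over 422 probes 0.45) in the tumor and -0.02 (SD 0.40) in the control. Chromosome 18 was the only acrocentric chromosome whose first end was lower than its last end on the tumor array.

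Within a chromosome, the ends of acrocentric and biarmed chromosomes differed in opposite directions. On the tumor array the first end was higher than the last end in 5 of 6 acrocentric chromosomes, by a mean of 0.29 ± 0.27 (SD over 6 chromosomes), and lower in 10 of 12 biarmed chromosomes, with a mean difference of -0.13 ± 0.16 (SD over 12 chromosomes). The 2 biarmed exceptions were chromosomes 9 and 10. On the control array the first end was higher in 5 of 6 acrocentric chromosomes, by 0.08 ± 0.07 (SD over 6 chromosomes), and lower in 11 of 12 biarmed chromosomes, with -0.06 ± 0.08 (SD over 12 chromosomes). These mean differences were about as large as their SDs over chromosomes. Relative to the rest of the same chromosome, the class means on the tumor array were -0.31, -0.19, 0.00080 and -0.29 for biarmed first, biarmed last, acrocentric first and acrocentric last ends, each within the SD over ends of the class means given above.

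Along the chromosome, taken in bands of 5 Mb, the class means of the arm tips came closer to 0 inward from the end. At the biarmed first ends of the tumor array, the mean of the window medians was -0.40 ± 0.16 (SD over 12 chromosomes) in the outermost 1 Mb, -0.34 ± 0.14 between 2 and 3 Mb and -0.16 ± 0.19 between 4 and 5 Mb. Just outside the chosen 5 Mb it was -0.17 ± 0.20 between 5 and 6 Mb, and it was -0.15 ± 0.13 from 5 to 10 Mb and -0.03 ± 0.09 from 10 to 15 Mb. At this class the limit of 5 Mb thus did not coincide with a step. At the acrocentric last ends the mean went up and down inside the 5 Mb. It was -0.30 ± 0.16 (SD over 6 chromosomes) in the outermost 1 Mb, -0.21 ± 0.16 between 1 and 2 Mb, -0.21 ± 0.17 between 3 and 4 Mb and -0.29 ± 0.06 between 4 and 5 Mb. Further inward this class had -0.14 ± 0.11 between 5 and 6 Mb, -0.13 ± 0.11 from 5 to 10 Mb and -0.02 ± 0.16 from 10 to 15 Mb. Biarmed last ends also lacked a clear gradient inside the 5 Mb, with -0.18 ± 0.25 (SD over 12 chromosomes) in the outermost 1 Mb and -0.15 ± 0.12 between 4 and 5 Mb, and they had -0.09 ± 0.17 from 5 to 10 Mb. The class means of the acrocentric first ends were between -0.02 and 0.07 in each of the 5 outer windows.

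In the control tissue the gradient at the biarmed first ends ran from -0.17 ± 0.07 (SD over 12 chromosomes) in the outermost 1 Mb to -0.05 ± 0.10 between 4 and 5 Mb and -0.01 ± 0.03 from 10 to 15 Mb. Windows below 0 were 43.5% of all windows on the tumor array and 46.6% in the control. Counted from the tip inward, the median unbroken stretch of windows below 0 on the tumor array was 8 Mb at biarmed first ends, 8.5 Mb at acrocentric last ends, 4 Mb at biarmed last ends and 0 Mb at acrocentric first ends. The longest, 19 Mb, was at the first end of chromosome 5, which is named here after its value was seen. In the same order of classes the medians in the control were 5, 2, 3 and 1 Mb.

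**Figure D2:**
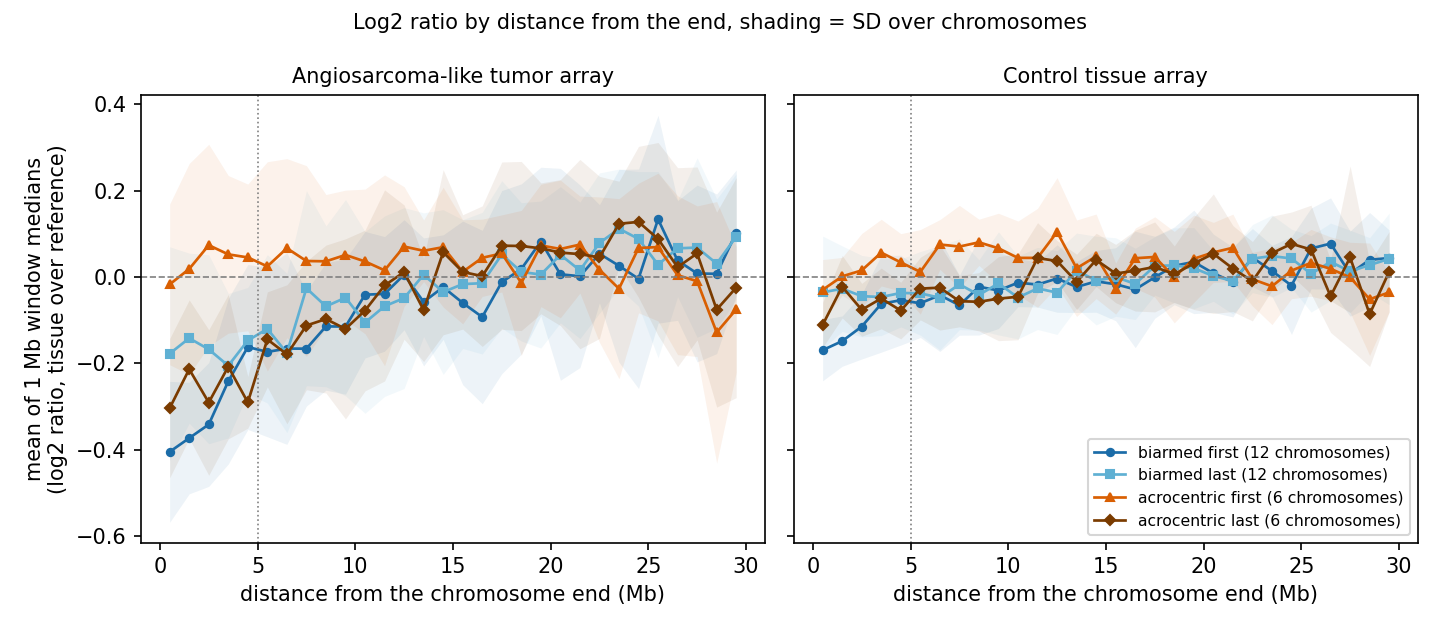
Mean of 1 Mb window medians (log2 ratio of tissue over reference) against the distance from the chromosome end in Mb for the 4 classes, with the SD over chromosomes as shading and the 5 Mb limit as a dotted line, for the tumor array (left) and the control array (right). On the tumor array the biarmed first ends rise from -0.40 at the tip to -0.16 between 4 and 5 Mb, and the acrocentric first ends stay near 0.

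Counted by windows, the arm tips of the tumor array were rich in low stretches. A window of 1 Mb was counted as low at a median of -0.25 or below, which 12.2% of all 2155 autosomal windows met. Low windows were 43 of 60 at biarmed first ends, 17 of 30 at acrocentric last ends, 21 of 60 at biarmed last ends and 3 of 30 at acrocentric first ends, and all 3 of the latter were on chromosome 18. The share at acrocentric first ends was near that of all windows. At least 1 low window was present in 11 of 12 biarmed first ends, 11 of 12 biarmed last ends and 6 of 6 acrocentric last ends, where 28.5% of all blocks of 5 such windows held at least 1. In 4 biarmed first ends all windows were low, against 1.93% of all such blocks. In all, the ends held 84 of the 262 low windows, and 37 end windows were at -0.4 or below, against 2.69% of all windows.

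High windows, at 0.25 or above, were 9.51% of all autosomal windows on the tumor array, and 5 of the 180 end windows. Of these, 3 were at the first end of chromosome 15 between 2000001 and 5000000, 1 at the first end of chromosome 17 and 1 in the outermost 1 Mb of the last end of chromosome 10, where the median was 0.26 in the tumor and 0.23 in the control. These were named after their values were seen. The first end of chromosome 10 had no window at or above 0.25.

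On the control array 2 end windows were low, against 0.232% of all windows, and 0 were high, against 0.696%. The count of low windows depended on the signals and the threshold, with 56 of 180 under normexp background correction of the median signals, against 9.33% of all windows in that setting, and 40 of 180 at a threshold of -0.15, against 5.61%. The 2 windows were the outermost 1 Mb of chromosome 2, with -0.25, and the window from 1000001 to 2000000 on chromosome 3, with -0.26. On the tumor array the same windows had -0.49 and -0.54. These windows too were named after their values were seen.

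End by end, the tumor array and the control array followed a similar order. Across the 36 ends their levels had a Pearson correlation of 0.89 and a Spearman correlation of 0.89, as a description only, since the arrays share the probes and each used reference liver. Across the 404 blocks of 5 Mb outside the ends the Pearson correlation was 0.87. The tumor level was below the control level at 31 ends and above it at 5, and 46.1% of all 5 Mb blocks were lower in the tumor. The mean difference of tumor minus control was -0.20 ± 0.09 (SD over 12 ends) at biarmed first ends, -0.20 ± 0.08 (SD over 6 ends) at acrocentric last ends, -0.14 ± 0.05 (SD over 12 ends) at biarmed last ends and 0.01 ± 0.15 (SD over 6 ends) at acrocentric first ends. With centring on the mode the differences at the first 3 of these were -0.31, -0.30 and -0.24. That at acrocentric first ends was then -0.087, so its sign depended on the centring, and the counts of 31 and 5 ends hold for centring on the median. After subtraction of the brightness trend described further on, the differences at the first 3 classes were -0.054, -0.061 and -0.065. The widest negative difference was -0.31 at the last end of chromosome 17, and the widest positive one 0.20 at the first end of chromosome 15.

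**Figure D3:**
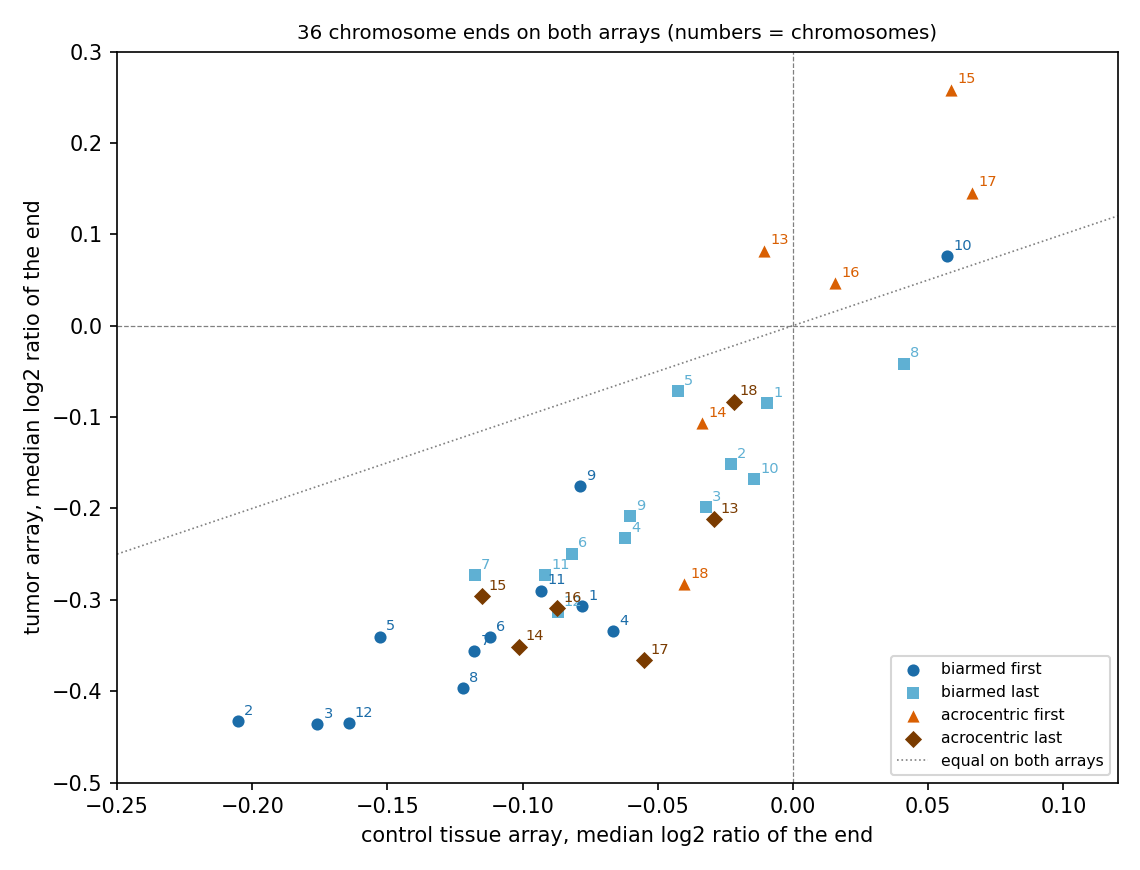
Median log2 ratio of each of the 36 ends on the tumor array (vertical axis) against the control array (horizontal axis), with chromosome numbers beside the points and a dotted line where both are equal. The ends follow 1 band with a Pearson correlation of 0.89, 31 of them lie below the line, and the levels span -0.21 to 0.07 in the control against -0.44 to 0.26 in the tumor.

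The level of an end moved with the brightness of its probes. Brightness was taken as the median log2 reference signal of the end on the other array, relative to the autosomal median, so that the log2 ratio and the brightness do not share a measurement. Biarmed first ends were brighter than the autosomal median by 1.07 ± 0.59 (SD over 12 ends) in the reference signal of the control array, acrocentric last ends by 1.01 ± 0.34 (SD over 6 ends) and biarmed last ends by 0.65 ± 0.30 (SD over 12 ends), while acrocentric first ends were at -0.11 ± 0.72 (SD over 6 ends). This is the order of the classes by log2 ratio, turned round. Across the 36 ends the Pearson correlation of tumor level and brightness was -0.97, and that of control level and brightness -0.91. Across the 404 blocks outside the ends the correlations were -0.96 and -0.87, so the same relation was present away from the ends. Its part in the low level of the ends was not tested beyond the subtraction of the trend, and probe sequence, which can bear on brightness, was not used here.

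Several ends that lay apart from their class in log2 ratio also lay apart in brightness. The first end of chromosome 10 had a reference signal of -0.54 on the control array, the lowest of the biarmed first ends, and the first end of chromosome 18 had 0.80, the highest of the acrocentric first ends. The first ends of chromosomes 15 and 17, the highest in log2 ratio on the tumor array, had -0.79 and -0.93. The last ends of chromosomes 8 and 5, the highest of the biarmed last ends, had 0.09 and 0.21. The last end of chromosome 11, the next to lowest of its class in log2 ratio, was no exception in brightness, with 0.72 against a class mean of 0.65 ± 0.30 (SD over 12 ends).

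**Figure D4:**
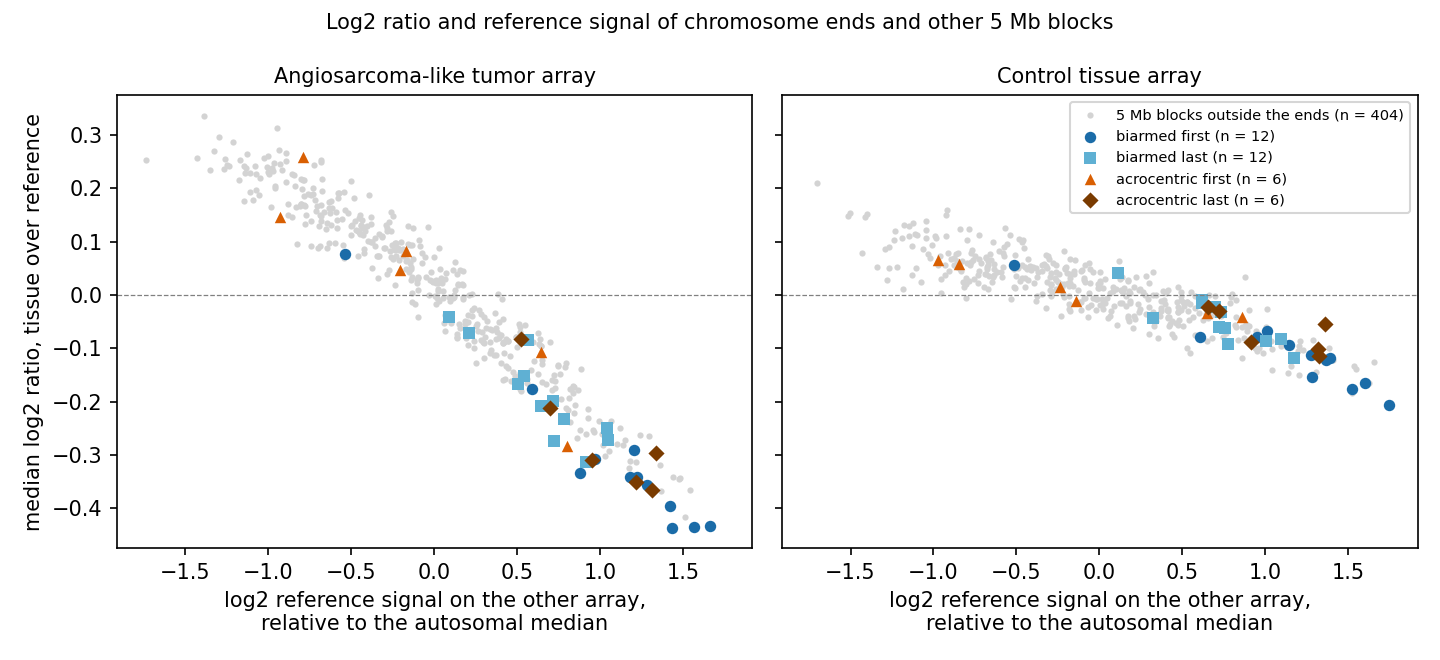
Median log2 ratio of tissue over reference against the log2 reference signal on the other array, relative to its autosomal median, for the 36 ends (coloured by class) and for 404 other blocks of 5 Mb (grey), on the tumor array (left) and the control array (right). The log2 ratio falls with brightness in the ends and in the other blocks, with Pearson correlations over the ends of -0.97 and -0.91, and many ends of the tumor array lie in the lower part of the band of the other blocks.

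Removal of the brightness trend took away most of the low level of the arm tips. The trend was learned by lowess on autosomal probes outside the ends and then subtracted at the ends. On the tumor array the means became -0.063 ± 0.024 (SD over 12 ends) at biarmed first ends, -0.055 ± 0.038 (SD over 12 ends) at biarmed last ends, -0.041 ± 0.041 (SD over 6 ends) at acrocentric last ends and -0.0042 ± 0.055 (SD over 6 ends) at acrocentric first ends. The first 3 classes differed by less than their SDs over ends. In this setting 0 of the 180 end windows were low, as were 0% of all 2155 windows, and 1 was high, against 0.232% of all windows, so windows past 0.25 in size were rare everywhere.

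A smaller offset remained on the tumor array. After removal of the trend, 30 of 36 ends were below 0 there, against 46.1% of all 5 Mb blocks, and on the control array 15 of 36 ends, against 46.8%. The blocks outside the ends had a mean of 0.0049 ± 0.033 (SD over 404 blocks) on the tumor array. All 12 biarmed first ends were below 0, from -0.088 to -0.021, and chromosome 10, above 0 before, was among them with -0.021. Of the others, 11 of 12 biarmed last ends, 4 of 6 acrocentric last ends and 3 of 6 acrocentric first ends were below 0. The lowest value, -0.12, was at the last end of chromosome 11. On the control array the class means were -0.0088, 0.0099, -0.0028 and 0.021 for biarmed first, biarmed last, acrocentric first and acrocentric last ends. Within a chromosome, the first minus the last end was -0.0083 ± 0.034 (SD over 12 chromosomes) for biarmed and 0.037 ± 0.070 (SD over 6 chromosomes) for acrocentric chromosomes of the tumor array. In the control it was -0.019 ± 0.030 (SD over 12 chromosomes) for biarmed chromosomes, with the first end lower in 10 of 12, against 7 of 12 in the tumor. For the acrocentric chromosomes of the control it was -0.023 ± 0.037 (SD over 6 chromosomes), the opposite sign to that before subtraction. The levels left on both arrays had a Pearson correlation of 0.063 across the 36 ends.

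**Figure D5:**
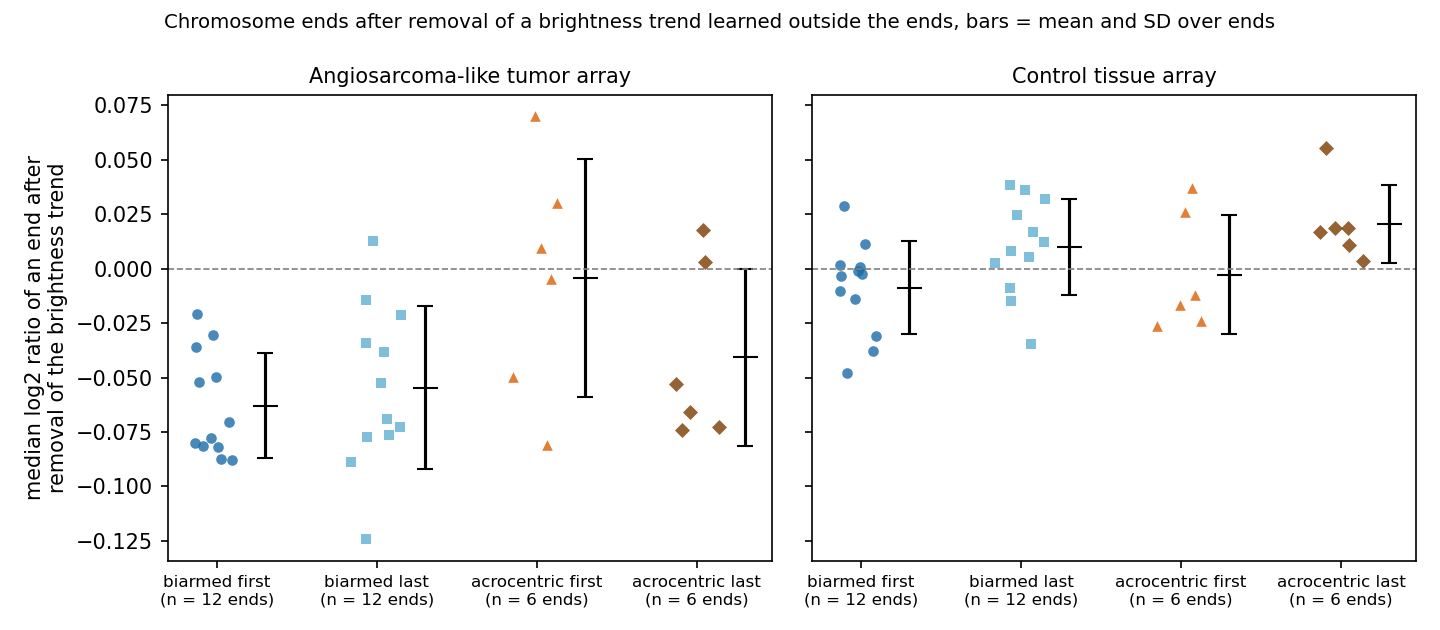
Median log2 ratio of each of the 36 ends by class after subtraction of a brightness trend learned outside the ends, on the tumor array (left) and the control array (right), with the mean and SD over ends as black bars. The biarmed first ends of the tumor array all lie below 0 with a mean of -0.063, and those of the control array lie around -0.0088.

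The channels could also be set against each other across the arrays. The tumor signal over the control tissue signal, Cy3 on both arrays and centred in the same way, was -0.15 ± 0.07 (SD over 12 ends) at biarmed first ends, -0.09 ± 0.05 (SD over 12 ends) at biarmed last ends, -0.13 ± 0.06 (SD over 6 ends) at acrocentric last ends and -0.01 ± 0.10 (SD over 6 ends) at acrocentric first ends. The reference signals of both arrays, which hold no tumor DNA, also differed at the ends. The reference of the tumor array over that of the control array was 0.04 ± 0.04 at biarmed first ends, 0.04 ± 0.02 at biarmed last ends, 0.05 ± 0.02 at acrocentric last ends and -0.0027 ± 0.044 at acrocentric first ends. These values were smaller than those of the tissue channel and of opposite sign at the arm tips.

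The scatter between neighbouring probes was lowest at the biarmed first ends. The derivative log2 ratio spread, from the interquartile range of the differences between neighbours, was 0.317 there on the tumor array, 0.346 at acrocentric last ends, 0.367 at biarmed last ends and 0.421 at acrocentric first ends, against 0.405 on the rest of the autosomes. On the control array it was 0.340, 0.379, 0.373 and 0.450 in the same order of classes, against 0.426. The acrocentric first ends, the dimmest class, had the widest scatter on both arrays.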

How the data were processed

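Genomic DNA of 1 tumor and 1 control tissue was measured on 1 array each, so samples were grouped by the labels and no test was run. Per the file headers, the authors used Agilent Feature Extraction 11.0.1.1. The deposited intensity values are processed signals on a linear scale, background-subtracted, spatially detrended and scaled by 1 linear dye factor per channel, beside raw medians of spot and background. The log10 ratios deposited in the scanner output are of red over green and equal those of the series table. Precision is limited by the number of arrays.

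Here, log2 ratios of Cy3 over Cy5 processed signals were centred on the median of the autosomal probes, without loess. Control spots were not used, nor outlier-flagged spots (27 in the tumor and 10 in the control, 3 and 0 of them in the ends). Windows of 1 Mb with at least 5 probes and blocks of 5 Mb with at least 100 were counted inward from both ends of a chromosome up to its middle. The brightness trend was a lowess fit (fraction 0.3) against local brightness, averaged over the probes up to 250 kb away from the Cy5 signal (log2) measured on the opposite array. The scripts were tested on simulated data. The members, lists and rules were chosen with earlier results of these data known. Ends named are the 2 lowest and 2 highest of a biarmed class and the lowest and highest of an acrocentric class on the tumor array. Alternatives were other end widths, centrings, summaries, filters, thresholds and signals, the deposited log ratios, normexp on median signals (offset 50, limma 3.58.1, R 4.3.3), the trend and each chromosome left out. The Cy3 signals alone were added after seeing the data. Python 3.11.15, numpy 2.4.6, pandas 2.3.3, scipy 1.17.1, statsmodels 0.14.6 and matplotlib 3.10.9 were used.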

Additional observations from a re-analysis of the deposited data

Results flagged for a closer look

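With each array centred on its median, the arrays lay on opposite sides of 0 at 2 ends, a difference that was not tested. The modes of the arrays were 0.042 in the tumor and -0.06 in the control, so which ends are counted depends on the centring. Opposite sides were also found outside the ends. The 5 Mb block next to the first end of chromosome 1 had -0.074 in the tumor and 0.0072 in the control. Another block of this chromosome, far from its last end, had 0.126 and -0.017. The share of all 5 Mb blocks on opposite sides was not counted, so the 2 ends cannot be called unusual. The last end of chromosome 8 had a median log2 ratio of -0.041 in the tumor and 0.041 in the control. The first end of chromosome 13 had 0.082 in the tumor and -0.011 in the control.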

How the results depend on the processing

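All alternatives except the comparison of Cy3 signals alone were listed before these computations, with earlier results of the data known. Besides leaving out single chromosomes, 272 of 340 recomputed values moved by less than the SD over ends (for counts, by less than 1.5 times), 61 moved by more with the same sign and 7 moved by more and changed sign. Among the 272, 23 changed sign within 1 SD, 19 of them values of the acrocentric first ends, whose mean was near 0, and 4 of the difference of biarmed last minus acrocentric last ends. With the trend learned on all autosomal probes, the tumor means of biarmed first, biarmed last and acrocentric last ends were -0.053, -0.050 and -0.033, the control means -0.0095, 0.0095 and 0.020, and the tumor minus control differences -0.043, -0.059 and -0.053. Acrocentric last minus first was -0.028 in the tumor and 0.023 in the control, and biarmed first minus acrocentric first -0.047 and -0.0066. Low end windows were 0 on both arrays, as were 0% of all windows, and 1 was high on the tumor array, against 0.232% of all windows. With the trend learned outside the ends, the same values were -0.063, -0.055 and -0.041 for the tumor, -0.0088, 0.0099 and 0.021 for the control, -0.054, -0.065 and -0.061 for the differences, -0.037, 0.023, -0.059 and -0.0060 for the class contrasts, and 0, 0 and 1 for the windows. With centring on the mode, the control means of biarmed last, acrocentric last and acrocentric first ends were 0.012, -0.0083 and 0.069, the tumor minus control differences -0.31, -0.24 and -0.30 for biarmed first, biarmed last and acrocentric last ends, and low control windows 0 with 1 high window on each array. With the mean over probes, these 3 control means were -0.0040, -0.029 and 0.062. Normexp on median signals gave control means of -0.25, -0.13 and -0.21 for biarmed first, biarmed last and acrocentric last ends, control contrasts of -0.23 for acrocentric last minus first, -0.27 for biarmed first minus acrocentric first and 0.081 for biarmed last minus acrocentric last, 56 low control windows and 0 high tumor windows. The deposited log ratio and the series table both gave 1 low control window and 2 high tumor windows. Only 1 control window was low with probes well above background or relative to the rest of the chromosome. Ends of 2 Mb held 39 low and 2 high tumor windows, and ends of 10 Mb 131 and 11, since fewer or more windows were counted. The windows counted were those of 1 Mb within that width at the 36 ends, so the bare counts cannot be compared between widths. Of all windows on the tumor array, 12.2% were low and 9.51% high. Past 0.4 there were 37 low and 0 high tumor windows and 0 low control windows. Past 0.15 there were 13 high tumor, 3 high control and 40 low control windows. Of all windows, 2.69% were low on the tumor array at -0.4, and 5.61% on the control array at -0.15. For high windows at 0.15 the share of all windows was not computed, so the counts of 13 and 3 cannot be set against the other windows. The same holds for the window counts with centring on the mode, the deposited log ratio and the series table. It also holds for those with probes well above background or relative to the rest of the chromosome, for high windows under normexp, and for high tumor and low control windows past 0.4. When each chromosome was left out in turn, high tumor windows ranged from 2, without chromosome 15, to 5, and low control windows from 1, without chromosome 2 or chromosome 3, to 2. Apart from changes in the number of windows and in the threshold, the cause was not tested. In the tissue channel 12.9% of the end probes of the tumor array and 14.1% of those of the control array were not well above background.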

Other observations

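Chromosome X is biarmed and was left out of the 4 classes. Its first 5 Mb had a median log2 ratio of -0.10 (SD over 410 probes 0.44) in the tumor and 0.01 (SD 0.45) in the control. The last 5 Mb had -0.25 (SD over 301 probes 0.53) in the tumor and -0.09 (SD 0.53) in the control, while the rest of the chromosome had 0.08 and 0.05. The last end of X was thus in the range of the biarmed last ends of the autosomes on both arrays. After subtraction of the brightness trend it had -0.11 in the tumor and -0.028 in the control, and the first end had 0.010 and 0.056.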
